A study of Macaca fascicularis with 10 samples.

Results

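TAC1 encodes preprotachykinin, the precursor of substance P and neurokinin A. It was read by allele in the dorsal raphe nucleus, a midbrain region that holds many of the brain's serotonin neurons. The data are the TAC1 row of a table of 7229 genes, with the maternal and the paternal column of each of 10 daughters. The gene was chosen by its role in the raphe and selected on the measured range of its allelic shares between daughters, so that range is described here and not tested. TAC1 had reads in 9 of the 10 daughters. Daughter 2 had no TAC1 value.

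All 10 animals were female cynomolgus macaques (Macaca fascicularis) with a labelled mother and father. They form 1 group of 1 tissue, with no treatment or genotype label and no age given in the sources used here. The animals are called daughter 1 to daughter 10, following the labels. Daughters 1 to 6 carry the title prefix 10203 and daughters 7 to 10 the prefix 10480. Counts are of reads assigned to 1 parental allele, which is possible only where a read covers a position that differs between the parental copies. A daughter without a TAC1 value may therefore still express the gene. For the same reason the total of allelic reads follows the number of such positions as well as the level of TAC1 RNA. As the tissue is a mixture of cells, fewer TAC1 cells and less TAC1 RNA per cell cannot be told apart.

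Tachykinins are short peptides that share a C-terminal motif and are cut from their precursors in the secretory pathway by prohormone convertases. Substance P binds best to the receptor NK1 (gene TACR1), neurokinin A to NK2 (TACR2) and neurokinin B, from the gene TAC3, to NK3 (TACR3), all of which couple to Gq proteins. Substance P lies in fibres throughout the dorsal raphe, and in humans it has been found within a part of its serotonin neurons. In human and mouse the TAC1 gene is not among the well-established imprinted genes, which are expressed mainly from the copy of 1 parent.

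Allelic depth ranged from 30090 reads in daughter 1 to 999471 in daughter 6. The paternal column held 49.3% to 50.4% of each daughter's reads. These totals include 12 transfer RNA rows, without which the mean TAC1 level would be 1437 CPM (reads per 1000000 allelic reads) in place of 969. TPH2, which catalyses the first step of serotonin synthesis in neurons and is the defining marker of this tissue, had 41 to 5409 allelic reads in 7 daughters. The markers of astrocytes and oligodendrocytes in the lists used were not analysed here. The sides of the columns are given as labelled. DLK1 and MEST, which human and mouse express from the paternal copy, lay on the paternal side in daughter 3, at 98.6% and 91.3% of reads. In daughter 6 both lay on the maternal side, with paternal shares of 1.74% and 3.09%. GRB10, an imprinted gene whose expressed copy depends on the tissue, lay in the paternal column in daughters 3, 4, 5 and 10 and in the maternal column in daughters 2, 6 and 9. COPG2, which lay opposite GRB10 wherever both were read, puts daughters 7 and 8 with daughters 2, 6 and 9. The columns may thus be swapped between the parents in these 5 daughters, which the sources used here do not settle. All values are given as labelled. The means, the fitted ratio, the count of intervals and the spread are also given with the columns of daughters 2, 6, 7, 8 and 9 turned, an alternative added after seeing the data.

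TAC1 was strongly unequal between its alleles in daughters 3 and 6, on opposite sides as the columns are labelled. In daughter 3 it had 1109 paternal and 399 maternal reads, a paternal share of 73.5% (95% Wilson interval 71.3 to 75.7). In daughter 6 it had 594 paternal and 1575 maternal reads, a share of 27.4% (25.6 to 29.3). The intervals of these 2 daughters lie far apart, and each leaves out an equal share of 50%. With its columns turned, daughter 6 would have 72.6% (70.7 to 74.4), and the intervals of the 2 daughters would overlap.

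Another 3 daughters, all of prefix 10480, leaned to the maternal column by nearly the same amount. Daughter 7 had 37 paternal and 64 maternal reads, a paternal share of 36.6% (27.9 to 46.4). Daughter 8 had 126 and 215, a share of 37.0% (32.0 to 42.2), and daughter 9 had 100 and 174, a share of 36.5% (31.0 to 42.3). The 3 intervals overlap and lie below 50%. Those of daughters 8 and 9 lie above the interval of daughter 6, while that of daughter 7 overlaps it.

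The other 4 daughters with reads had shares whose intervals include 50%. Daughter 4 had 353 paternal and 312 maternal reads (53.1%, interval 49.3 to 56.8), and daughter 5 had 185 and 154 (54.6%, 49.3 to 59.8). Daughter 10 had 159 and 157 (50.3%, 44.8 to 55.8). Daughter 1, the shallowest library, had 7 and 6 reads (53.8%, 29.1 to 76.8), too few to tell balance from the shares of daughters 7, 8 and 9. In all, 5 intervals left out an equal share, 4 of them on the maternal side and 1 on the paternal side as labelled. With the columns turned in daughters 2, 6, 7, 8 and 9, all 5 would lie on the paternal side and 0 on the maternal side. Reads without molecular identifiers can repeat 1 molecule, so the intervals reflect counting error alone.

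**Figure D1:**
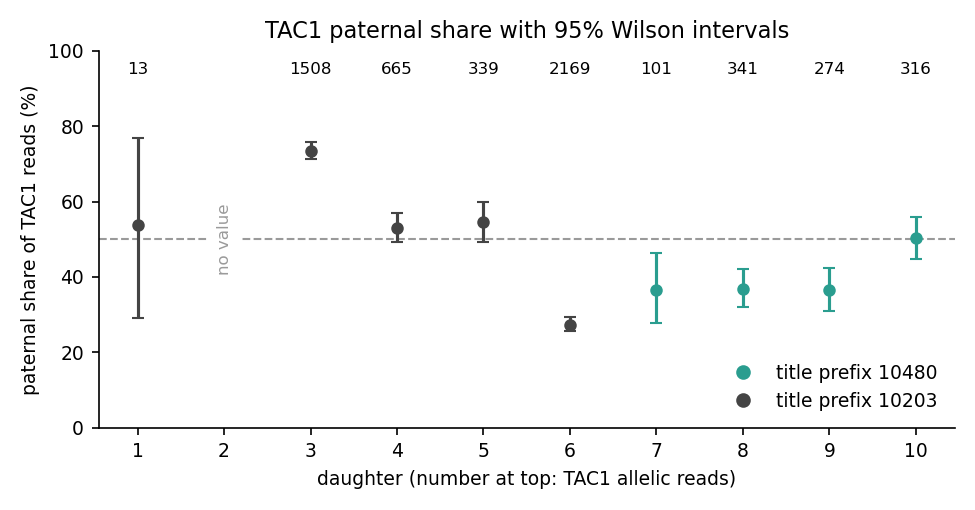
Paternal share of TAC1 allelic reads (percent, y axis) in each daughter (x axis), with 95% Wilson intervals. Numbers at the top are TAC1 allelic reads, colours give the title prefix, and the dashed line marks an equal share. Daughter 3 lies at 73.5%, daughter 6 at 27.4% and daughters 7, 8 and 9 between 36.5% and 37.0%.

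The mean paternal share was 47.0% ± 14.0 (SD, n = 9). Without daughters 2, 6 and 9 it was 51.3% ± 12.5 (SD, n = 7), and without daughters 7 and 8 too it was 57.1% ± 9.35 (SD, n = 5). With the columns turned in these 5 daughters it was 60.9% ± 8.50 (SD, n = 9). The mean thus lay on the other side of 50% in each of these alternatives. The distance from an equal share, which does not depend on which column is which parent, was 10.9 ± 8.50 percentage points (SD, n = 9). The fitted log2 ratio of paternal over maternal TAC1 counts was -0.20 ± 0.27 (SE, edgeR with the daughter as block). Daughter 2 entered that fit as 0 in both columns and carries no information on the ratio. Without daughters 2, 6 and 9 the ratio was 0.10 ± 0.26 (SE), and with the columns turned in daughters 2, 6, 7, 8 and 9 it was 0.71 ± 0.16 (SE). This contrast was used in choosing the gene and is given as a description. Across the table, edgeR's quasi-likelihood test called 0 of 2981 genes (0%) for a parental difference, at a threshold of 0.05 on the Benjamini-Hochberg adjusted p. DESeq2 called 0 as well. GRB10 and DLK1, whose sides differ between daughters, were thus not called as labelled, while edgeR called both with the columns turned. The counts of 0 genes called, here and in the lists below, therefore do not show that the parental alleles are equal. The unadjusted p was under 0.05 for 93 genes by edgeR and for 62 by DESeq2.

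By title prefix, the paternal share averaged 40.1% ± 6.81 in the 4 daughters of prefix 10480 and 52.5% ± 16.4 in the 5 of prefix 10203 with TAC1 reads (SD). The range within prefix 10203, from 27.4% to 73.5%, takes in the whole range of prefix 10480, from 36.5% to 50.3%. These means use the columns as labelled, and 3 of the 4 daughters of prefix 10480 are among those whose columns are in doubt.

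Daughters with a common labelled parent were set side by side. Daughters 7 and 8, which share a father, had the shares 36.6% and 37.0%, and daughters 4 and 5, which share another, had 53.1% and 54.6%. Daughter 1 has the same father as 7 and 8, and its share of 53.8% carries an interval that includes theirs. Daughters 6 and 10, which share a mother, had 27.4% and 50.3%, with intervals that do not overlap. The difference was 0.316 points between daughters 7 and 8, 1.49 between 4 and 5, 17.2 between 1 and 7, 16.9 between 1 and 8 and 22.9 between 6 and 10. The median was 16.7 over all 36 pairs of daughters with TAC1 reads. Daughters 7 and 9 share no labelled parent and differed by 0.137 points, the smallest difference of any pair. All these shares and differences use the columns as labelled, which are in doubt in daughters 6, 7, 8 and 9. The columns of daughter 1 could not be placed. With the columns turned, daughters 7 and 8 would have 63.4% and 63.0%, and daughter 6 would have 72.6%. The pairs with a common parent were too few to test.

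The spread of TAC1 was set beside that of other genes as a description, since it helped to choose the gene. Over the 8 daughters with 100 or more TAC1 reads, the SD of the paternal share was 14.7 percentage points, where counting around equal alleles alone would give 2.81. Among 165 genes with that depth in 8 or more daughters the median SD was 4.56 points, and 11 genes, TAC1 among them, had 14.7 or more. PITRM1, a mitochondrial peptidase, had the widest spread at 24.7 points, followed by the retinol saturase RETSAT at 23.8. LUZP2 at 14.7 and NDUFB9, a subunit of respiratory complex I, at 15.2 were next above TAC1. This spread depends on the column labels. With the columns of daughters 2, 6, 7, 8 and 9 turned for every gene, the SD of TAC1 was 8.63 points against a median of 4.57, and 25 of the 165 genes were at or above it. With a minimum of 10 reads, the SD of TAC1 was 14.0 points against a median of 9.12 over 1108 genes, and 206 genes (18.6%) were at or above it.

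**Figure D2:**
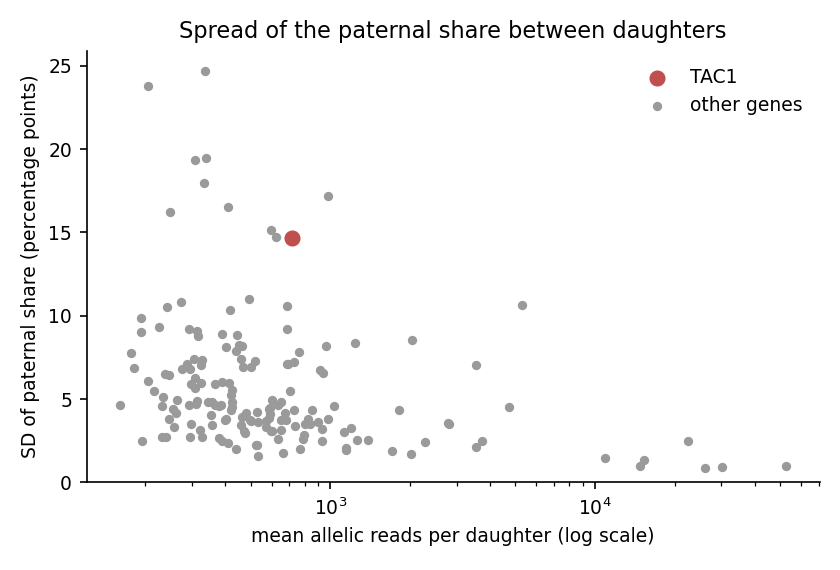
SD of the paternal share between daughters (percentage points, y axis) against the mean allelic reads per daughter (x axis, log scale), for the 165 genes that reached 100 reads in at least 8 daughters. TAC1, in red, has an SD of 14.7 points, against a median of 4.56.

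The level of TAC1, as CPM (allelic reads of the gene scaled to 1000000 allelic reads of that daughter), was highest in the same 2 daughters. It was 2321 in daughter 3 and 2170 in daughter 6, then 979 in daughter 8 and 791 in daughter 4. Daughter 9 had 656, daughter 10 had 634, daughter 1 had 432, daughter 5 had 369.5 and daughter 7 had 368.6. Daughters 3 and 6 did not differ beyond their 95% intervals (2207 to 2441 and 2081 to 2263). Neither did neighbours in this order from daughter 4 down, while daughters 6 and 8, and daughters 8 and 4, had intervals that did not overlap. The mean was 969 ± 752 CPM (SD, n = 9), and daughters 3 and 6 gave 64.2% of the 5726 TAC1 reads.

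Seen allele by allele, each of the 2 high daughters had 1 allele far above the other. As CPM of each column's own total, the paternal allele had 3460 in daughter 3 and 1188 in daughter 6, and 271 to 834 in the others. The maternal allele had 1212 in daughter 3 and 3152 in daughter 6, and 336 to 1232 in the others. The lower allele of daughters 3 and 6 was thus close to the highest value of any other daughter, the maternal allele of daughter 8 at 1232.

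**Figure D3:**
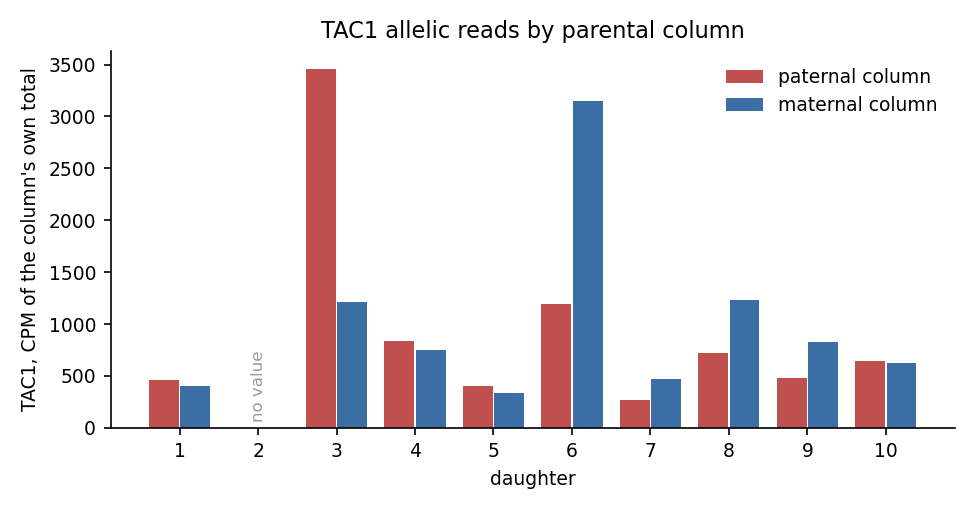
TAC1 in the paternal (red) and maternal (blue) column of each daughter (x axis), in CPM of that column's own total (y axis). The paternal bar of daughter 3 reaches 3460 and the maternal bar of daughter 6 reaches 3152, while no other bar exceeds 1232.

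Whether the 2 alleles rise and fall together between daughters was then asked of every gene with enough reads. The values of TAC1 are a description with no test, since the rule that chose it read the same columns. Pearson's r between paternal and maternal CPM was 0.327 and Spearman's rho 0.80 (n = 9). Leaving out daughters 6 and 8, whose maternal CPM lay farthest from the median, gave an r of 0.849 (n = 7). Without daughter 3 alone it was 0.865 and without daughter 6 alone 0.645 (n = 8 each), and without daughters 2, 6 and 9 it was 0.678 (n = 7). The low r of all 9 daughters thus rests on daughters 3 and 6, whose higher alleles lie in opposite columns as labelled. It therefore depends on the column labels, which are in doubt in daughters 6, 7, 8 and 9. This r was not taken with those columns turned, so its place among the genes below holds only as labelled. Over the table, 822 of 1108 genes (74.2%) were called with r above 0 by permutation tests with Benjamini-Hochberg adjustment, the median r was 0.858, and 69 genes (6.23%) had a lower r than TAC1. The number of informative positions differs between animals and moves both alleles alike, and its part in these correlations was not tested.

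The distance of the share from 50% is also among the values that chose the gene and is set beside its read number with no test. Pearson's r was 0.722 and Spearman's rho 0.383 (n = 9). Without daughters 3 and 6 Pearson's r was -0.267 (n = 7), so the value rests on those daughters. The level, which the rule did not use, was tested against depth. TAC1 CPM against total allelic reads gave r = 0.464 (n = 9, exact permutation test, two-sided, p = 0.216, and 0.216 adjusted over the 2 correlations computed on TAC1 alone) and rho = 0.417 (exact permutation p = 0.270, adjusted 0.313). Without daughters 1 and 6, the farthest in depth, r was 0.0946 (exact permutation p = 0.873).

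By prefix, TAC1 averaged 659 ± 250 CPM in prefix 10480 (SD, n = 4) and 1217 ± 954 in prefix 10203 (SD, n = 5). The difference in mean log2(CPM + 1), 10480 minus 10203, was -0.55 (exact permutation test, two-sided, p = 0.413, where the smallest p of this design is 0.00794). Prefix 10203 holds fewer than 6 daughters with TAC1 reads and prefix 10480 has 4, so no correlation was taken within a prefix.

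Of the 6 listed tachykinin ligand and receptor genes 5 were in the table, and TAC4 was not analysed here. The 4 others in the table had few reads. The receptor gene TACR1 reached 10 reads in 3 daughters, with 24 reads in daughter 4 (41.7% paternal), 47 in daughter 6 (44.7%) and 10 in daughter 8 (70%). All 3 Wilson intervals include 50%, and in daughter 6, where TAC1 leaned most to the maternal column, that of TACR1 ran from 31.4 to 58.8. TACR3, the receptor of neurokinin B, had 10 reads in daughter 2 (60% paternal), 23 in daughter 4 (65.2%) and 10 in daughter 5 (40%). TAC3 had 8 reads in daughter 6 and 1 in daughter 4, and TACR2 had 1 read in all. TAC1 was the only 1 of these genes that passed the read filter of the edgeR fit.

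Among genes that process peptide precursors, PCSK2, a convertase that cuts them, had a paternal share of 55.5% in daughter 3 (155 reads) and of 53.0% in daughter 6 (217 reads), and both intervals include 50%. In daughter 7 it had 64.6% and in daughter 8 37.1%, so it lay opposite TAC1 in the first of these and beside it in the second. QPCT, which forms the N-terminal pyroglutamate of some peptides, averaged 48.9% ± 8.60 (SD, n = 6). The table held 4 of 15 listed processing and granule genes, and the edgeR fit 2 of them. It called 0, their median log2 ratio was -0.11, and 12 of 17 measurements lay between 40% and 60%. Over the whole table the median log2 ratio of the genes tested was -0.01, and 69.8% of 27887 measurements lay between 40% and 60%.

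Among peptidases that act on tachykinins, THOP1 averaged 46.5% ± 9.23 (SD, n = 8) and ACE, the angiotensin-converting enzyme, 49.7% ± 7.47 (SD, n = 4). The table held 3 of 7 listed and the fit 1, with 0 called, a log2 ratio of -0.09 and 10 of 12 measurements between 40% and 60%. In the Gq pathway below NK1, the table held 12 of 20 genes and the fit 11, with 0 called and a median log2 ratio of -0.04. Of their 83 measurements 68 lay between 40% and 60%. GNAQ, the alpha subunit of Gq, averaged 49.5% ± 2.79 (SD, n = 6), the calcium channel ITPR2 49.0% ± 4.59 (SD, n = 10) and the protein kinase PRKCA 47.4% ± 5.76 (SD, n = 7). ADRBK2, a receptor kinase, averaged 53.1% ± 18.7 (SD, n = 9). All 61 of its reads in daughter 9 were paternal (100%), and its share did not exceed 56.9% elsewhere. By edgeR, none of the tested genes of these lists had an unadjusted p under 0.05.

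Other neuropeptide precursors could be read in few daughters. Of 43 listed, 17 were in the table and 0 had enough reads for the edgeR fit, and 10 of 16 measurements lay between 40% and 60%. NTS, the neurotensin precursor, leaned to the paternal column in daughter 5, with 398 paternal and 144 maternal reads (73.4%, interval 69.6 to 77.0). It did so in daughter 2 too, at 74.4% of 43 reads. In daughters 9 and 10 it had 56.3% of 87 and 53.9% of 128 reads, with intervals that include 50%. PENK, the enkephalin precursor, had 36.8% of 106 reads in daughter 3 (28.2 to 46.3), on the side opposite to TAC1, and 51.9% of 133 in daughter 6.

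The serotonin gene TPH2 lay nearer to an equal share than TAC1 in daughters 3, 6, 8 and 9, and had no value in daughter 7. It had 387 paternal and 391 maternal reads in daughter 3 (49.7%, interval 46.2 to 53.2) and 2793 and 2616 in daughter 6 (51.6%, 50.3 to 53.0, just above an equal share). In daughters 8 and 9 it had 47.8% of 1633 and 48.7% of 667 reads. Its interval did not overlap that of TAC1 in any of these 4 daughters. They are daughters in which the TAC1 interval left out 50%, and TAC1 was chosen for its range, so this is a description. In daughters 4, 5 and 10 the intervals of TPH2 and TAC1 overlapped. TPH2 had 47.5% against 53.1% for TAC1 in daughter 4. It lay farther from 50% than TAC1 in daughter 5 (56.1% against 54.6%) and in daughter 10 (45% against 50.3%). Other serotonin genes did not all lie as near to 50% as TPH2 did in daughters 3 and 6. SLC18A2, the vesicular monoamine transporter, had 56.3% of 554 reads in daughter 3 (52.2 to 60.4), on the side of TAC1. In daughter 6, GCH1, a cofactor synthesis enzyme, had 7.69% of 13 reads (1.37 to 33.3), on the side of TAC1, and the decarboxylase DDC had 54.8% of 803 (51.3 to 58.2), on the other side. The markers of GABA neurons, GAD1 and GAD2, averaged 49.3% ± 3.98 and 50.3% ± 5.80 (SD, n = 6 each), and all 12 of their measurements lay between 40% and 60%. Of the serotonin list, 16 of 21 measurements lay in that range, with 0 of 2 tested genes called. The same counts were 6 of 11 for catecholamine genes, 10 of 12 for glutamate genes and 7 of 12 for acetylcholine genes. They were 6 of 8 for choroid plexus and 18 of 24 for endothelium, with 0 called in each of these lists by edgeR and 0 at an unadjusted p under 0.05. In the acetylcholine list, SLC5A7 had an SD of 24.3 points (n = 6), against 14.0 for TAC1 (n = 9). Its share was 0.990% of 101 reads in daughter 7, on the side of TAC1, and 73.9% of 249 reads in daughter 5. CHAT, in the same list, averaged 50.3% ± 10.4 (SD, n = 6).

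Genes next to TAC1 on its chromosome were read for comparison, in the gene order of the assembly T2T-MFA8v1.1. The counts were made on a different build (macFas5), so no coordinates are given. No other gene of that assembly overlaps TAC1. Of 11 neighbours reported as imprinted in human or mouse, PEG10 and SGCE among them, 0 were in the table. The nearest genes with enough reads were C1GALT1, a glycosyltransferase, 5 genes away on 1 side, and SLC25A13, a mitochondrial carrier, 14 genes away on the other. C1GALT1 averaged 52.7% ± 9.04 (SD, n = 5) and had no value in daughters 3 and 6. SLC25A13 had 77 reads in daughter 3 (57.1% paternal, 46.0 to 67.6) and 224 in daughter 6 (47.3%, 40.9 to 53.8).

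Farther out, ICA1, an islet and brain autoantigen 21 genes away, had 241 reads in daughter 3 (50.6% paternal) and 42 in daughter 6 (47.6%). THSD7A, a membrane protein 36 genes away, had 80.9% of 68 reads in daughter 3 (70.0 to 88.5), on the side of TAC1, and 44.6% of 289 in daughter 6 (39.0 to 50.4). RBM48, 57 genes away, had 22 reads in daughter 3 (86.4%, 66.7 to 95.3), on the side of TAC1, and 33 in daughter 6 (42.4%). AKAP9, an anchoring protein for protein kinase A 69 genes away, had 327 reads in daughter 3 (48.0%) and 58 in daughter 6 (50%). ANKMY2, MIOS and PDK4 were the other neighbours given here. In the 5 daughters whose TAC1 interval left out 50%, these 9 neighbours gave 30 measurements. Of these, 25 had an interval that included 50%, and 14 had an interval that did not overlap that of TAC1. On the side of TAC1, 50% was left out by THSD7A and RBM48 in daughter 3, RBM48 in daughter 7 and SLC25A13 in daughter 8. On the other side, it was left out by SLC25A13 in daughter 9. These 5 daughters were taken for their TAC1 intervals. Over all daughters, 46 of 59 measurements of the 9 neighbours had an interval that included 50%. Of the 51 in daughters with TAC1 reads, 18 had an interval that did not overlap that of TAC1. Some intervals are wide because reads were few, as for ICA1 and AKAP9 in daughter 7 (15 reads each) and RBM48 in daughter 9 (10 reads). The same counts were not taken over all genes. No test of the difference between TAC1 and its neighbours was made, as TAC1 was chosen for its shares.

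**Figure D4:**
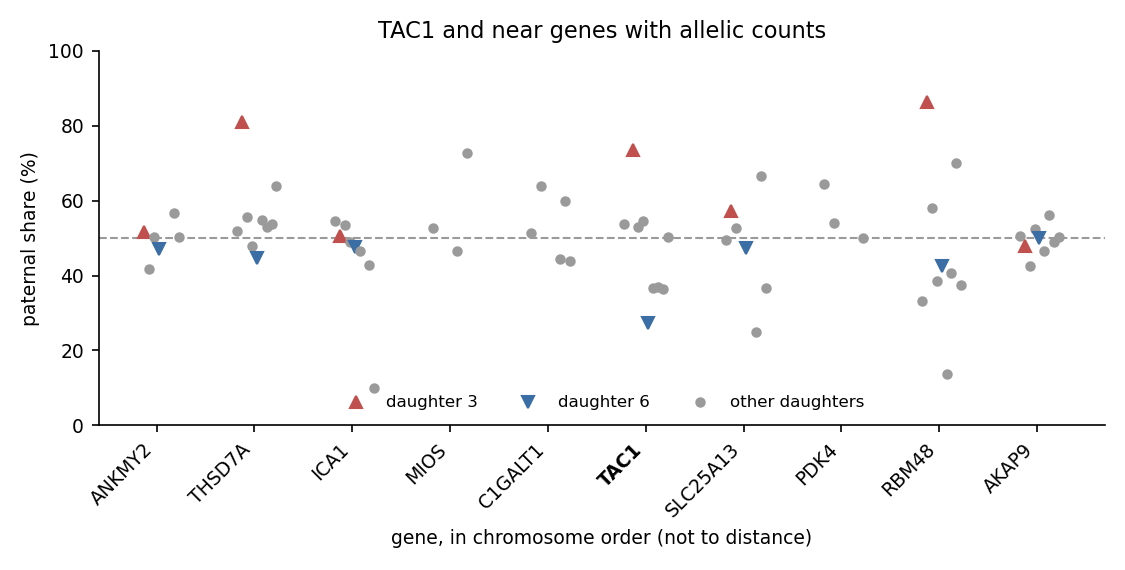
Paternal share (percent, y axis) of TAC1 and 9 of the nearest genes with enough reads (x axis, in chromosome order, not to distance), each point 1 daughter with 10 or more reads. Daughters 3 and 6 are marked. They lie at 73.5% and 27.4% for TAC1, and at 57.1% and 47.3% for SLC25A13.

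The genes with the allelic pattern most like that of TAC1 were taken by Pearson's r of log2 ratios over daughters in which both genes had 10 or more reads. Among 659 genes with 8 or more such daughters the median r was -0.00698, and no test was made of the extremes. The highest r were 0.842 for NOL9, 0.835 for TMEM62 and 0.812 for THSD7A (n = 8 each), then 0.799 for PITRM1 (n = 8) and 0.799 for FN1, which encodes fibronectin (n = 9). The lowest were -0.916 for CEP112, -0.878 for GREB1, -0.855 for GRIN1, a subunit of the NMDA receptor, -0.850 for the X-linked TBL1X and -0.822 for HADHA (n = 8 each). THSD7A is the only 1 of these 10 that is also among the named neighbours of TAC1. NOL9 ranged only from 42.9% to 55.5% and GRIN1 from 46.7% to 52.8%, so a high r in size does not mean a wide range. These r depend on the column labels. With the columns of daughters 2, 6, 7, 8 and 9 turned they were -0.0275 to 0.427 for the first 5 genes and -0.744 to -0.106 for the last 5.

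The sides taken by TAC1 were set beside those of the imprinted genes GRB10 and COPG2, which lie on the same chromosome in that assembly, after the values had been seen. In daughter 3 TAC1 had a paternal share of 73.5%, GRB10 96.5% and COPG2 22.4%. In daughter 6 the shares were 27.4%, 2.97% and 86.3% in the same order, and in daughter 9 they were 36.5%, 9.16% and 87.8%. COPG2 and GRB10 lay on opposite sides in all 5 daughters that had both. In daughters 7 and 8, where GRB10 had no value, COPG2 had 76.1% and 78.0% while TAC1 had 36.6% and 37.0%. In daughters 4, 5 and 10, GRB10 had 97.7%, 96.0% and 98.2%, while TAC1 lay above 50% with intervals that include it.

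TAC1 thus lay on the side of GRB10, or opposite COPG2 where GRB10 had no value, in 8 of 8 daughters, of which 5 had a TAC1 interval that left out 50%. Among the 553 other genes that reached 10 reads in each of those 8 daughters, 5 genes (0.904%) showed the same sides throughout. These were MRPL38, CEP170B, OAT, RPTOR and SPG7. The pattern was noticed in these data, and no test was made of it. In each of these daughters in which GRB10 was read, TAC1 was far from the near-complete inequality of GRB10.

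**Figure D5:**
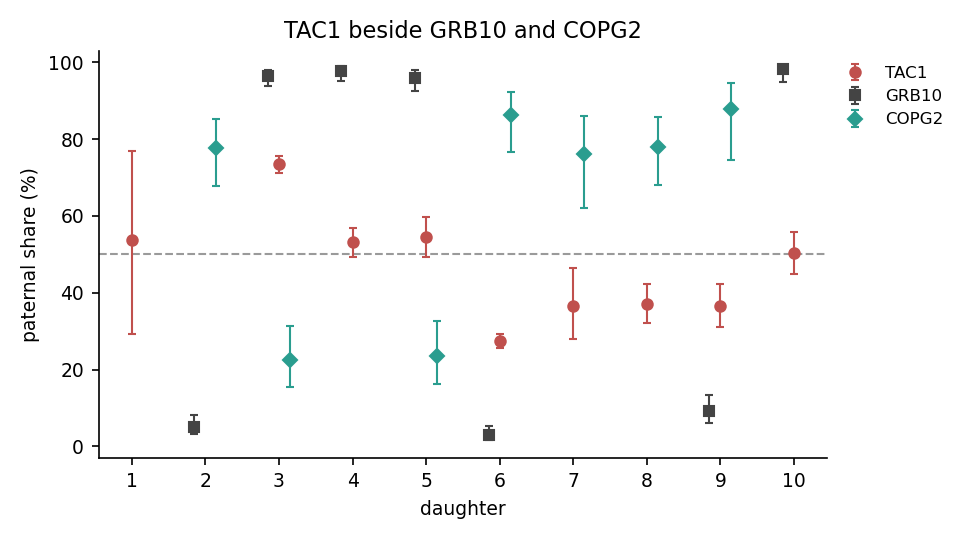
Paternal share (percent, y axis) of TAC1, GRB10 and COPG2 in each daughter (x axis) with 10 or more reads, with 95% Wilson intervals. TAC1 lies above the dashed line of equal shares in daughter 3, at 73.5%, and below it in daughters 6 to 9. In daughters 3, 5, 6 and 9, which had all 3 genes, it lies between GRB10 and COPG2.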

How the data were processed

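Total RNA was sequenced from both ends over 101 cycles, in stranded libraries depleted of ribosomal RNA, per the labels' protocols. Novoalign was the aligner, per the submitters' processing notes. The authors deposited whole-number counts per gene in 20 columns, 1 maternal and 1 paternal per daughter, on the build macFas5, per the file headers. Phasing, informative positions, strand use in counting and read filters are not given in the sources used here. TAC1 and the gene lists were chosen with earlier results of these data known.

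Genes needed 10 allelic reads in 5 daughters for the edgeR quasi-likelihood fit (version 4.0.16, R 4.3.3, robust, daughter as block, library size summed over both alleles). DESeq2 1.42.0 was the other tool. A missing value entered these fits as 0 in both columns. The SE of a log2 ratio was derived from the quasi-likelihood F. Shares used daughters with 10 or more reads, and log2 ratios per daughter added 0.5 to each count. Permutation tests were exact under 10 daughters and used 100000 permutations otherwise. Both procedures were tested on simulated data. Named genes were up to 4 per list by level, up to 5 neighbours per side with 10 reads in 3 or more daughters, and the 5 highest and lowest correlations with TAC1. A neighbour that the rule names is not reported here. Gene order came from the T2T-MFA8v1.1 gene table, which matched 6566 of 7229 symbols. The daughters are separate animals. The pairing of columns is that of 2 alleles in 1 animal. Other values were computed in Python 3.11.15 with SciPy 1.17.1, NumPy 2.4.6 and pandas 2.3.3, and plots drawn with matplotlib 3.10.9.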

Additional observations from a re-analysis of the deposited data

Results flagged for a closer look

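Of 43 quantities checked for 1 daughter far from the rest, 5 were flagged, and chance alone flags about 1 in 20. TAC1 paternal CPM was flagged for daughter 3, at 3460 against 271 to 1188 in the other 8 daughters. TAC1 maternal CPM was flagged for daughter 6, at 3152 against 336 to 1232. These 2 daughters set the allelic range for which TAC1 was chosen, so the rate of chance flags does not apply to them. Both flags use the columns as labelled, which are in doubt in daughter 6, and were not taken with the columns turned. The paternal share and the CPM of both alleles together were not flagged for TAC1.

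Among the genes set beside it, ADRBK2 had a paternal share of 100% of 61 reads in daughter 9, against 37.0% to 56.9% in the others. SLC17A8, a vesicular glutamate transporter, had 29.7% of 37 reads in daughter 9, against 45.2% to 56.8%. ICA1 had 10% of 10 reads in daughter 10, against 42.9% to 54.4%.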

How the results depend on the processing

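The mean paternal share of TAC1 ran from 43.7% to 49.4% when each daughter was left out in turn, and its SD from 10.5 to 14.9 points. The fitted log2 ratio ran from -0.44 to -0.02, was -0.10 with no replicate block, and changed sign to 0.10 without daughters 2, 6 and 9 and to 0.71 with the columns of daughters 2, 6, 7, 8 and 9 turned, both chosen after seeing the data. Genes called between the columns numbered 2 without the read filter (FAM199X and ZIM2) and 0 to 1 when each daughter was left out, the 1 being TSPAN7 without daughter 4. With the columns turned they numbered 4, GNAS, GRB10, COPG2 and DLK1, of which GRB10 and COPG2 had set which daughters were turned. DLK1 had been among the genes that put the columns in doubt, so its call is no independent check either. Pearson's r between the TAC1 alleles ran from 0.285 to 0.865 when each daughter was left out. It was 0.849 without the 2 farthest daughters and 0.678 without daughters 2, 6 and 9, against a rho of 0.80. All of these use the columns as labelled. The correlation of distance with reads ran from 0.597 to 0.788 when each daughter was left out, with a rho of 0.383 and -0.267 without daughters 3 and 6. The mean TAC1 level was 1437 CPM with the 12 transfer RNA rows left out of the total. It was 1922 CPM when scaled to the 453 genes measured in all daughters. Both denominators are smaller by construction. The cause of the other shifts was not tested. The prefix difference in level and the relation of level to depth stayed on their side of the threshold in all alternatives run. Correlations within prefix 10203 could not be given with 5 daughters. Depth limits daughter 1 most, with 13 TAC1 reads.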
